A study of Mus musculus with 4 samples.

Results

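Fibronectin, vitronectin, structural glycoproteins and genes of the hyaluronan matrix made up 8 of the 84 genes of an extracellular matrix (ECM) and adhesion array and were described in osteoblasts with and without *Vegf*. Fibronectin, a group of structural glycoproteins and the hyaluronan matrix make up much of the non-collagenous scaffold that osteoblasts (OBs), the bone-forming cells, lay down and hold on to. Fibronectin is assembled into fibrils through integrins at the cell surface and serves as a template for collagen. Hyaluronan is a long sugar chain that large proteoglycans such as versican attach to, that link proteins fasten them on, and that cells grip through the receptor CD44. The adhesive glycoproteins are *Fn1* (well C03) and *Vtn* (well G12). The structural glycoproteins are *Fbln1* (well C02), *Emilin1* (well B12) and *Ecm1* (well B11). The hyaluronan matrix is represented by *Vcan* (well G11), *Hapln1* (well C04) and *Cd44* (well A05). The genes were grouped by the known function of their products. The deposited table lists wells without symbols, and the names follow the alphabetical layout of the array. No table used here pairs the wells with symbols, so each name rests on that layout, which was checked here against neither symbols nor fold changes.

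Primary long-bone OBs came from 4-day-old male and female mice whose *Vegf* alleles are floxed, so that Cre-recombinase can cut the gene out. OBVEGFKO cultures received adenovirus carrying Cre and GFP, and WT cultures, which carry the same floxed alleles, received adenovirus carrying GFP alone. Cells at passage 1 were transduced for 6 days in 10% serum and then kept for 24 h in 1% serum before 500 ng RNA was reverse transcribed and run on the quantitative PCR (qPCR) array. Each sex and genotype was represented by 1 culture, 4 in all, and how many animals each culture drew on is not given in the sources used here. The cycle threshold (Ct) counts the PCR cycles needed for a well to reach a fixed fluorescence, so each cycle fewer means 2-fold more template if amplification is fully efficient. With n = 1 per group, no difference below has a replicate error or a test, and a 2-fold difference is used only as a mark of size. These are bulk cultures, in which fewer cells of a type and less RNA per cell cannot be told apart. *Vegf* mRNA was not analysed here. *Col1a1*, *Sparc* and *Spp1*, which encode type I collagen, osteonectin and osteopontin of the bone matrix and were placed by the same layout, had Ct values of 17.33 to 18.87 in WT and 14.64 to 15.72 in OBVEGFKO cultures and ranked between 2 and 8 from the lowest Ct of the array.

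All 8 genes were detected below the ceiling of 35 cycles in all 4 cultures, as were 76 of the 84 wells. The mean Ct of these 76 wells was 25.93 (female) and 25.50 (male) in WT cultures and 22.30 (female) and 22.57 (male) in OBVEGFKO cultures. All 76 wells had a lower Ct in OBVEGFKO than in WT cells of the same sex, with a median fall of 3.28 cycles in female and 2.84 cycles in male cultures. A fall in Ct was therefore common to the array, and its cause was not tested. The sources used here give 500 ng RNA per reverse transcription but not the amount of cDNA per well. To describe each gene against the array, every culture was centred on the mean Ct of the 76 wells, and the log2 relative change is the fall in Ct beyond the fall of that mean. In 3 of the 76 wells, 1 culture stood apart by over 3 cycles. Well E01 had a Ct of 13.67 in female OBVEGFKO against 28.83 to 31.97 elsewhere. Well F05 had 14.84 in female OBVEGFKO against 18.33 to 21.18, and well G06 had 30.02 in female WT against 19.30 to 22.39. Outside the 76, well F06 had 15.65 in female OBVEGFKO and stood at 35 in the other cultures. What set these readings apart was not tested. Wells E01, F05 and G06 hold none of the 8 genes, but they shift the mean of the female cultures. Most relative values below are therefore also given without them, as a setting added after the data were seen. The median relative change of the 76 wells was −0.36 in female cells with these wells in the mean and −0.02 without them, and in male cells it was −0.08 and −0.10.

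The 8 genes ranged from among the lowest Ct values of the array to well above its median. *Fn1* had the lowest Ct of the set in every culture and *Vtn* the highest. *Ecm1* was always next after *Fn1*, followed by *Emilin1*, *Fbln1* and *Cd44*, whose Ct values lay within 0.92 cycles of each other in each culture and whose order changed between cultures. *Vcan*, *Hapln1* and *Vtn* followed in that order in all 4 cultures. *Fn1* ranked between 5 and 7 of the 84 wells from the lowest Ct, close to the type I collagen gene, and *Vtn* between 60 and 64. Each well has its own primers, so this is an order of Ct values and not of copy numbers. For all 8 genes the Ct of both WT cultures lay above that of both OBVEGFKO cultures. The same held for 98.7% of the 76 wells, so it does not set these genes apart.

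**Figure D1:**
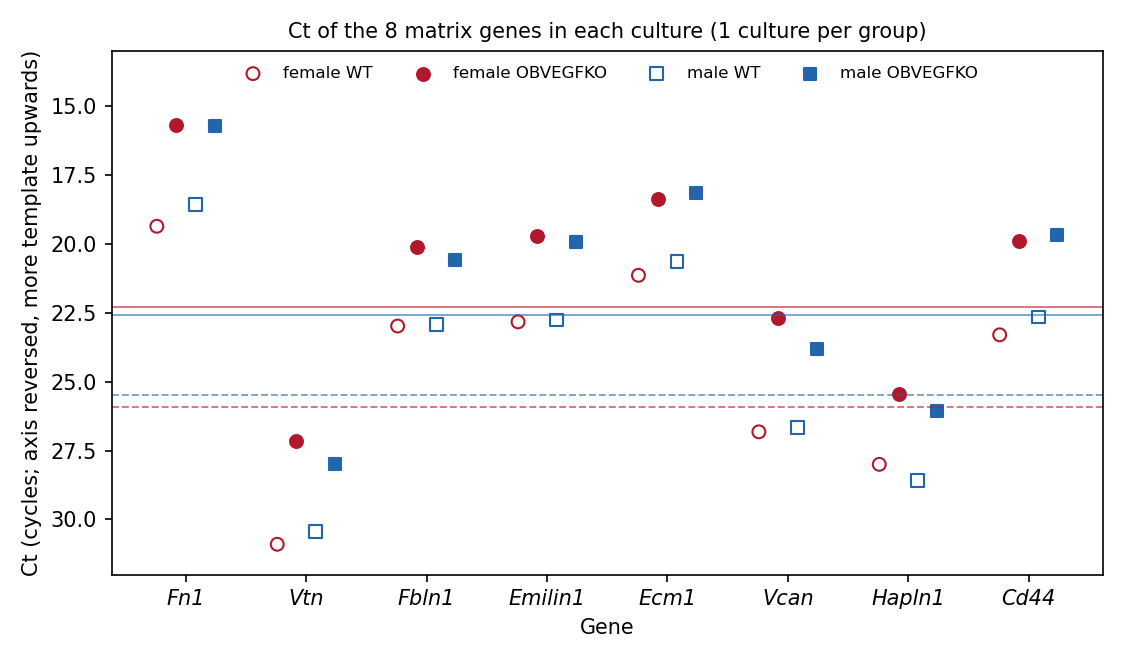
Ct in cycles (vertical axis, reversed so that more template is higher) of the 8 genes in female (red circles) and male (blue squares) cultures, open for WT and filled for OBVEGFKO, 1 culture each. Horizontal lines give the mean Ct of the 76 reference wells in WT (dashed) and OBVEGFKO (solid) cultures, coloured by sex; *Fn1* lies furthest above these lines and *Vtn* furthest below them in every culture.

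*Fn1* encodes fibronectin. Its Ct was 19.36 (female) and 18.57 (male) in WT cultures and 15.68 (female) and 15.73 (male) in OBVEGFKO cultures. The WT cultures differed by 0.79 cycles, with the male culture lower in Ct, whereas the OBVEGFKO cultures were 0.05 cycles apart. The Ct fell by 3.68 cycles in female and by 2.84 cycles in male cells after *Vegf* deletion, the male fall being equal to the median of the array. Against the panel mean, its log2 relative change was 0.04 in female and −0.08 in male cells. Without the 3 wells it was 0.38 and −0.10. With the median Ct of the 76 wells as reference the female value was −0.29, so the direction of *Fn1* in female cells depended on the reference.

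*Vtn* encodes vitronectin, a plasma and matrix protein that binds integrins. Its Ct was 30.90 (female) and 30.44 (male) in WT cultures and 27.16 (female) and 28.00 (male) in OBVEGFKO cultures. The WT cultures were close and the OBVEGFKO cultures were 0.84 cycles apart, with the female culture lower in Ct. Its Ct was 3.74 cycles lower in OBVEGFKO than in WT for the female pair and 2.44 lower for the male pair. The log2 relative change was 0.10 in female cells, rank 16 of 76 from the highest, and −0.48 in male cells, rank 65. Without the 3 wells these values were 0.44 and −0.50, and with the median Ct as reference the female value turned to −0.23. *Vtn* had the highest Ct of the set, where readings vary more between wells. Among the 20 other wells with a highest Ct of 28 to 32, the interquartile range of the relative change ran from −0.76 to −0.14 in female and from −0.06 to 0.39 in male cells. *Vtn* lay above the first and below the second.

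The 3 structural glycoproteins had smaller falls in Ct than the median well in female OBVEGFKO cells, and in male OBVEGFKO cells *Ecm1* and *Fbln1* did while *Emilin1* was at the median. *Ecm1*, a secreted glycoprotein that binds other matrix proteins, had a Ct of 21.14 (female) and 20.64 (male) in WT cultures and 18.37 (female) and 18.17 (male) in OBVEGFKO cultures. The male culture had the lower Ct in both genotypes. Its fall in Ct was 2.77 cycles in female cells, rank 67 of 76, and 2.47 cycles in male cells, rank 64. Centred on the panel mean, the log2 change was −0.87 in female and −0.45 in male cells, and −0.53 and −0.47 without the 3 wells.

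*Fbln1* encodes fibulin-1, a calcium-binding protein of elastic fibres and basement membranes that also binds fibronectin. Its Ct was 22.98 (female) and 22.91 (male) in WT cultures and 20.13 (female) and 20.58 (male) in OBVEGFKO cultures. The WT cultures were 0.07 cycles apart. The fall of 2.33 cycles in male cells was the smallest of the 8 genes, rank 73 of 76, and that in female cells was 2.85 cycles, rank 65. The log2 relative change was −0.79 in female and −0.59 in male cells, and −0.45 and −0.61 without the 3 wells. *Fbln1* thus lay below the panel mean in both sexes under either reference, as did *Ecm1*, *Emilin1* and *Hapln1*. Most wells did so too, 57 of the 76 in female and 45 in male cells, or 39 and 47 without the 3 wells. Among 27 other wells with a Ct under 24 in every culture, the interquartile range of the relative change ran from −0.54 to −0.23 in female and from −0.31 to 0.03 in male cells, and the values of both *Fbln1* and *Ecm1* lay below it in each sex.

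*Emilin1* encodes a glycoprotein found where elastin meets microfibrils. Its Ct was 22.83 (female) and 22.76 (male) in WT cultures and 19.71 (female) and 19.92 (male) in OBVEGFKO cultures, close to that of *Fbln1* throughout. The WT cultures differed by 0.07 cycles and the OBVEGFKO cultures by 0.21 cycles. From WT to OBVEGFKO its Ct fell by 3.12 cycles in the female and by 2.84 in the male pair of cultures. Its log2 relative change was −0.52 in female and −0.08 in male cells, and −0.18 and −0.10 without the 3 wells, so *Emilin1* followed the array more closely than *Ecm1* or *Fbln1*.

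The 3 genes of the hyaluronan matrix did not move alike. *Vcan* encodes versican, a large chondroitin sulphate proteoglycan that binds hyaluronan. Its Ct was 26.82 (female) and 26.67 (male) in WT cultures and 22.70 (female) and 23.80 (male) in OBVEGFKO cultures. The WT cultures were 0.15 cycles apart, whereas the female OBVEGFKO culture was 1.10 cycles lower than the male. The fall of 4.12 cycles in female cells was the largest of the 8 genes, rank 9 of 76, and the fall of 2.87 cycles in male cells was near the array median, rank 34. The log2 relative change was 0.48 in female and −0.05 in male cells, and 0.82 and −0.07 without the 3 wells. With the median Ct as reference the female value was 0.15.

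*Hapln1* encodes the link protein that fastens proteoglycans to hyaluronan and is abundant in cartilage. Its Ct was 28.00 (female) and 28.58 (male) in WT cultures and 25.43 (female) and 26.08 (male) in OBVEGFKO cultures. It was the only gene of the set with a higher Ct in the male than in the female WT culture. Over the array, 65 of the 76 wells had a lower Ct in the male WT culture. The fall in Ct was 2.57 cycles in female cells, the smallest of the 8 genes and rank 69 of 76, and 2.50 cycles in male cells, rank 61. The log2 relative change was −1.07 in female cells, 2.10-fold below the panel mean, and −0.42 in male cells. Without the 3 wells these were −0.73 and −0.44, and the 2-fold mark in female cells was then not reached.

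*Cd44* encodes the main cell-surface receptor for hyaluronan. Its Ct was 23.30 (female) and 22.65 (male) in WT cultures and 19.88 (female) and 19.66 (male) in OBVEGFKO cultures. The male culture had the lower Ct in both genotypes, by 0.65 and 0.22 cycles. From WT to OBVEGFKO its Ct was lower by 3.42 cycles (female) and 2.99 (male), and the log2 relative change was −0.22 and 0.07, or 0.12 and 0.05 without the 3 wells. *Cd44* and *Fn1* were the closest of the 28 pairs of genes in the set, with a root mean square difference of 0.11 between their gene-centred profiles over the 4 cultures. *Ecm1* and *Vcan* were the most distant pair, at 0.65.

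With *Vegf* deletion, the median of the set was near that of the array in female cells and slightly below it in male cells. In female cells 1 of the 8 genes, *Hapln1*, was at least 2-fold from the panel mean, against 17.1% of the 76 wells, and without the 3 wells none was, against 10.5%. With the median Ct as reference 3 were, *Hapln1*, *Ecm1* (−1.20) and *Fbln1* (−1.12), against 28.9%. In male cells none was, against 7.89% of the wells with or without the 3 wells in the mean and 5.26% with the median Ct. The median fall in Ct of the 8 genes was 3.27 cycles in female cells, where the array had 3.28, and 2.67 cycles in male cells, where the array had 2.84. Within the set, 4 genes (*Fn1*, *Vtn*, *Vcan* and *Cd44*) fell more than the array median in female cells and 4 less, while in male cells 2 (*Vcan* and *Cd44*) fell more and 4 less, with *Fn1* and *Emilin1* at the median. Of the 3 OB genes, *Sparc* alone was past 2-fold, in female cells and with the 3 wells in the mean. It had a log2 relative change of −1.19 in female cells, rank 72 of 76, and −0.23 in male cells, or −0.85 and −0.25 without the 3 wells. *Spp1* had −0.51 and −0.21, or −0.17 and −0.23, and *Col1a1* −0.33 and 0.35, or 0.01 and 0.33. Against the panel mean, *Sparc* thus lay low in female OBVEGFKO cells together with *Hapln1*, *Ecm1* and *Fbln1*. The part of the make-up of the cultures in this was not tested. Uncentred, *Sparc* had a lower Ct in OBVEGFKO than in WT cells, the gap being 2.45 cycles for the female pair and 2.69 for the male pair. With housekeeping genes as reference, the paper reports *Sparc*, *Spp1* and *Col1a1* as upregulated in OBVEGFKO cells of both sexes. A negative relative value here means a smaller fall in Ct than that of the panel mean and does not by itself show less transcript.

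**Figure D2:**
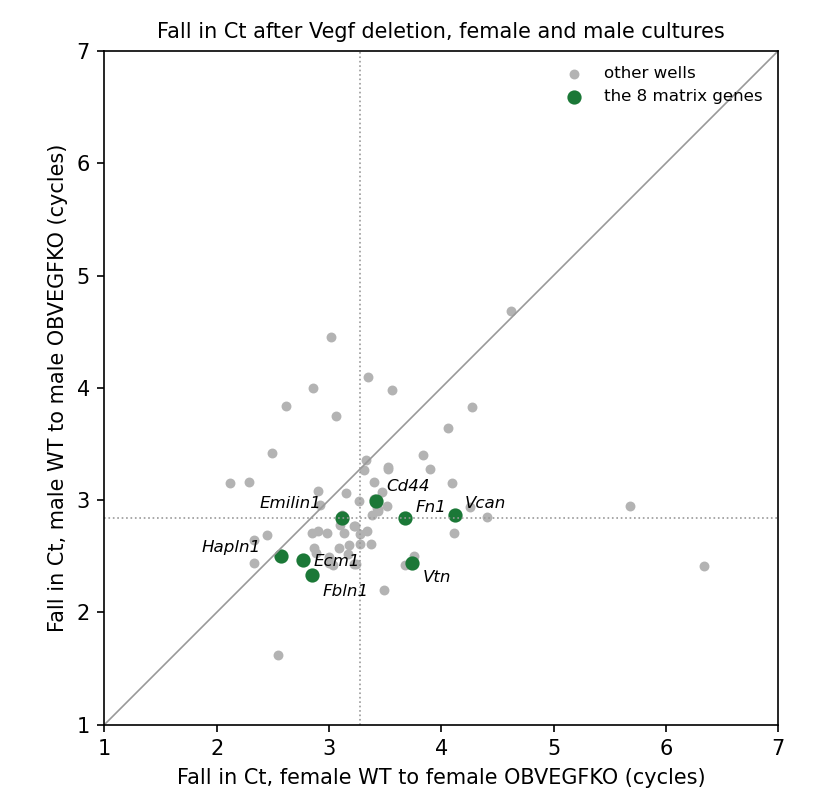
Fall in Ct from WT to OBVEGFKO in female (horizontal axis) and male (vertical axis) cultures, in cycles, for the 8 genes (green) and other wells below 35 cycles in all cultures (grey); 2 wells, E01 and G06, lie outside the axes. Dotted lines give the median of the 76 wells and the diagonal marks equal falls; all 8 genes lie below the diagonal, with *Vcan* and *Vtn* furthest from it and *Hapln1* nearest.

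The ratio of 2 genes within a culture needs no reference, because the same RNA feeds both wells. The Ct gap between *Vcan* and *Hapln1* was 1.18 cycles (female) and 1.91 cycles (male) in WT cultures and 2.73 cycles (female) and 2.28 cycles (male) in OBVEGFKO cultures, with *Vcan* lower in Ct in each. Versican transcript relative to link protein transcript was thus 2.93-fold higher after deletion in the female and 1.29-fold higher in the male cultures. The female value was the largest change among the 28 pairs in that comparison. The ratio of *Vcan* to *Ecm1* was 2.55-fold and 1.32-fold higher in OBVEGFKO than in WT cells of female and male origin, and that of *Vcan* to *Fbln1* 2.41-fold and 1.45-fold higher. *Fn1* relative to *Fbln1* was higher after deletion, by 1.78-fold (female) and 1.42-fold (male). *Fn1* relative to *Vtn* was 1.04-fold lower in female OBVEGFKO than WT cells and 1.32-fold higher in the male pair. These pairs were chosen after their values were seen and stand as a description.

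*Hapln1* and *Vcan* are neighbours on chromosome 13 with no other annotated gene lying wholly between them in the RefSeq annotation of the mouse assembly GRCm38.p6, and they are transcribed towards each other. Their promoter regions are shown because the ratio of these neighbouring genes changed most of the 28 pairs with deletion in female cells, with that of *Ecm1* as the gene whose profile was furthest from *Vcan*. Each run is the 250 bases before the RefSeq start, on the strand of the gene. *Vcan* lies on the minus strand at chr13:89742513-89742762, *Hapln1* on the plus strand at chr13:89540386-89540635 and *Ecm1* on the minus strand at chr3:95739570-95739819. Capitals mark the letters TATAAA of the TATA box, the letters CCAAT of the CAAT box or the letters TGACTCA of the AP-1 motif, each on either strand and none contained in another. These motifs were picked after the sequences were read.
Vcan promoter: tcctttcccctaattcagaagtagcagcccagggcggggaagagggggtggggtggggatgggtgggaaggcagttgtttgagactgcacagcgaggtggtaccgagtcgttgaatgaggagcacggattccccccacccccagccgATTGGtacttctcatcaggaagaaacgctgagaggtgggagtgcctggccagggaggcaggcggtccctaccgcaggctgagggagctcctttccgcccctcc
Hapln1 promoter: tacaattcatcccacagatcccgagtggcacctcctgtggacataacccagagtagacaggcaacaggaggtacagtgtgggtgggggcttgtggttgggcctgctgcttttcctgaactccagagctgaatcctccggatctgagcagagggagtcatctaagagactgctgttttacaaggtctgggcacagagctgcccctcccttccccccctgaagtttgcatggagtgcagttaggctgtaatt
Ecm1 promoter: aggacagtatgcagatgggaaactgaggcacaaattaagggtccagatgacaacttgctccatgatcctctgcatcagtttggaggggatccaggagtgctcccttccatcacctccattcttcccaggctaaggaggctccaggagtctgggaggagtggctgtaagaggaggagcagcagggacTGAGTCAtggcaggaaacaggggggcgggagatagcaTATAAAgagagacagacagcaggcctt
The *Vcan* run held the CAAT box, read on the opposite strand. The *Ecm1* run held the AP-1 motif, read on the opposite strand, and the TATA box, and the *Hapln1* run held none of the 3. Over all 32851 mouse promoter runs in the RefSeq table, the TATA box was found in 12.4%, the CAAT box in 33.8% and the AP-1 motif in 4.46%. Promoter entries were matched for 7 of the 8 genes, and *Vtn* was the only other one with a match, to the TATA box. None was matched for *Fn1*. A match is a description of letters and not of a binding site.

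Between the sexes in WT cells, the median per-well difference over the array was a Ct 0.44 cycles lower in the male culture. That of the 8 genes was 0.305 cycles lower. The Ct of *Fn1* was 0.79 cycles lower in male WT cells, that of *Cd44* 0.65, *Ecm1* 0.50, *Vtn* 0.46, *Vcan* 0.15, and *Fbln1* and *Emilin1* 0.07 each. *Hapln1* went the other way, with a Ct 0.58 cycles higher in male WT cells, where 65 of the 76 wells had a lower Ct. Relative to the panel mean, *Fn1* was 1.28-fold higher and *Hapln1* 2.02-fold lower in male WT cells (log2 −1.02), and without the 3 wells they were 1.37-fold higher and 1.89-fold lower. *Hapln1* was the 1 gene of 8 at least 2-fold from the panel mean, against 11.8% of the 76 wells, and without the 3 wells none was, against 10.5%. The ratio of *Fn1* to *Hapln1* within a culture was 2.58-fold higher in male than in female WT cells, and that of *Cd44* to *Hapln1* 2.35-fold higher. In the same comparison well A12, whose gene is not named in the sources used here, had the lowest relative value of the 76 wells, with a Ct of 25.05 (female) and 28.63 (male) in WT cultures and 22.19 (female) and 24.63 (male) in OBVEGFKO cultures. Like *Hapln1*, it had a higher Ct in male than in female cells in both genotypes. The 2 wells differed with deletion in male cells, where the log2 relative change was 1.08 for A12 and −0.42 for *Hapln1*. Whether the composition of the cultures has a part in these differences was not tested. Wells with a highest Ct of 28 to 32, among which *Hapln1* lies, had an interquartile range from −0.88 to 0.29 in this comparison, wider than the −0.24 to 0.17 of wells with a Ct under 24, and *Hapln1* lay below both.

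Between the OBVEGFKO cultures the array had a median fall in Ct of 0.01 cycles from female to male cells, and the 8 genes one of −0.33 cycles. Of the 76 wells, 38 had a lower Ct in male OBVEGFKO cells. Among the 8 genes these were *Cd44* and *Ecm1*, by 0.22 and 0.20 cycles. *Fn1*, *Emilin1* and *Fbln1* had a higher Ct in male cells, by 0.05, 0.21 and 0.45 cycles. *Hapln1*, *Vtn* and *Vcan*, the members with the highest Ct, were 0.65, 0.84 and 1.10 cycles higher in male cells. Relative to the panel mean, *Vcan* was 1.77-fold lower and *Vtn* 1.48-fold lower in male OBVEGFKO cells, ranks 71 and 69 of 76. No gene of the set was at least 2-fold from the panel mean, against 18.4% of the wells. Without the 3 wells *Vcan* was 2.11-fold lower in male cells and was the 1 gene of 8 past 2-fold, against 13.2% of the wells. *Vtn* was then 1.76-fold lower. Within a culture, *Vcan* relative to *Cd44* was 2.50-fold lower in male than in female OBVEGFKO cells, against 1.41-fold lower in male than in female WT cells.

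The fall in Ct after *Vegf* deletion was smaller in male than in female cells for all 8 genes, as it was for 78.9% of the 76 wells, so this does not set the 8 genes apart. The median difference was 0.475 cycles for the 8 genes and 0.44 over the array. The difference was 1.30 cycles for *Vtn*, 1.25 for *Vcan*, 0.84 for *Fn1*, 0.52 for *Fbln1*, 0.43 for *Cd44*, 0.30 for *Ecm1*, 0.28 for *Emilin1* and 0.07 for *Hapln1*. Relative to the panel mean, the male effect minus the female effect was −0.58 for *Vtn*, −0.53 for *Vcan* and −0.12 for *Fn1*, and positive for the other 5 genes, up to 0.65 for *Hapln1*. Without the 3 wells it was −0.94, −0.89 and −0.48 for *Vtn*, *Vcan* and *Fn1*, −0.16 for *Fbln1* and −0.07 for *Cd44*. It then stayed positive for *Ecm1* (0.06), *Emilin1* (0.08) and *Hapln1* (0.29). No gene reached a 2-fold difference between the sexes in either case, against 18.4% of the wells. With 1 culture per sex and genotype, a difference between the sexes and a difference between cultures cannot be told apart.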

How the data were processed

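The authors deposited Ct values, not normalised, for 84 wells in 4 cultures, measured with SYBR Green on an RT² Profiler array, and a table of fold changes normalised to housekeeping genes. The latter holds only the authors' own comparisons and was not used. Housekeeping wells were not analysed here, so the reference was the mean Ct of the 76 wells below 35 in all cultures, which can move every relative value of a comparison by the same amount. The log2 relative change assumes an efficiency of 2 per cycle. No test was made. All 8 genes were named by rule, and *Col1a1*, *Sparc* and *Spp1* to look at the cell type. The members and lists were chosen with earlier results of these data known. Wells standing apart were those where 1 culture departed by over 3 cycles from the median well in both comparisons it enters, a rule chosen after the data were seen. Counting a departure in a single comparison would also have taken well A12. Wells A12 and F06, the pairs, the Ct ranges of like wells and the motifs were likewise chosen after their values were seen. The centring code was run on simulated arrays. These held no wells at the ceiling and, for the centring, none standing apart, so the run cannot show how such wells move the mean. All 8 symbols were found in the RefSeq gene table of GRCm38.p6, and promoters came from RefSeq with that build. Alternatives were other references, no centring, an efficiency of 1.9 and a mark of 1.5-fold. Python 3.11.15, numpy 2.4.6, pandas 2.3.3 and matplotlib 3.10.9 were used.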

Additional observations from a re-analysis of the deposited data

Results flagged for a closer look

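Relative to the panel mean, the effect of *Vegf* deletion had opposite signs in female and male cells for 4 of the 8 genes, as it had for 44.7% of the 76 wells, and with 1 culture per group these differences were not tested. The male minus female difference was −0.12 for *Fn1*, −0.58 for *Vtn* and −0.53 for *Vcan*, positive in female and negative in male cells, and 0.29 for *Cd44*, negative in female and positive in male cells. The signs depended on the reference. They were opposite for *Fn1*, *Vtn* and *Vcan* without the 3 wells that stand apart (39.5% of wells), for *Vcan* alone with the median Ct (35.5%) and for *Vtn* alone with the median of per-well differences (28.9%). The male versus female difference had opposite signs in WT and OBVEGFKO cells for *Vtn*, with the same value of −0.58, and for *Emilin1*, at 0.44. This is 2 of 8 genes against 43.4% of the wells. Without the 3 wells the *Emilin1* value was 0.08. The count was 2 of 8 genes under some other references too, but not always of the same ones. These were *Fn1* and *Vtn* without the 3 wells (34.2% of wells) and with the median of per-well differences (36.8%). With the median Ct they were *Emilin1* and *Ecm1* (53.9%). With wells of at most 30 cycles, *Vtn* had opposite signs (0.12 in WT and −0.77 in OBVEGFKO cells), but *Emilin1* did not (−0.27 and −0.14). In uncentred Ct all 8 genes fell in both sexes, as did all 76 wells.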

How the results depend on the processing

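Counts of the 8 genes past 2-fold are given with the share of the 76 wells past the same mark. Without centring, all 8 genes and all 76 wells were past 2-fold in both deletion comparisons, so the count is that of the array; between WT sexes it was 0 of 8 (14.5% of wells) and between OBVEGFKO sexes 1 (13.2%). The medians of the 8 genes were then 3.27 in female and 2.67 in male deletion, 0.305 between WT sexes and −0.475 for the male minus female effect, and *Hapln1* in female cells turned from −1.07 to 2.57, by the amount the whole array fell. In female deletion, where 1 gene was past 2-fold, the count was 3 with the median Ct as reference (28.9%) or a mark of 1.5-fold (40.8%). It was 0 with the median of per-well differences (9.21%), wells of at most 30 cycles (10.5%), an efficiency of 1.9 (14.5%) or the panel mean without the 3 wells that stand apart (10.5%). In male deletion it went from 0 to 1 at 1.5-fold (17.1%). Between WT sexes it went from 1 to 0 with wells of at most 30 cycles (10.5%), an efficiency of 1.9 (9.21%) or without the 3 wells (10.5%). Between OBVEGFKO sexes it went from 0 to 1 with the median of per-well differences (13.2%), wells of at most 30 cycles (14.5%), a mark of 1.5-fold (34.2%) or without the 3 wells (13.2%). Of the 32 single-gene values, 32 kept their sign without the members in the reference and with an efficiency of 1.9, 30 with wells of at most 30 cycles, 29 without the 3 wells, 27 with the median Ct and 26 with the median of per-well differences. Without centring 15 kept it. No replicate could be left out. At Ct values near 30, as for *Vtn* and *Hapln1* in WT cells, wells scatter more than abundant ones.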
